A study of Mus musculus with 14 samples.

Results

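Opposite-strand transcripts are genes that carry the name of a neighbour followed by "os", because they are read from the other DNA strand at or beside that neighbour, their sense partner. The members described here were the rows of the count table whose mouse symbol ends in os, or os plus digits, where removing the ending gives another symbol in the table, and whose counts summed to at least 100 over the 14 libraries. Of 24100 genes in the table, 162 had such a symbol with a partner, 81 of these reached the minimum, and the other 81 stayed under it, 12 of them at 0 in every library. The members were thus selected on measured values, their summed counts, and their number is a description and no result. Just inside it were Uchl1os with 110 counts and Fmr1os with 101, and just outside were Pla2g10os with 99 and St8sia3os with 86.

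The 14 libraries came from cerebellum of mice at postnatal day 21, all of which carried Tg(Pcp2-L10a-EGFP), a bacTRAP transgene in which the promoter of the Purkinje cell gene Pcp2 drives the ribosomal protein L10a fused to EGFP. TRAP (translating ribosome affinity purification) pulls these tagged ribosomes down with antibodies to GFP, and the input is the part of the tissue supernatant set aside before the pulldown. Astn2 knockout mice (KO) were compared with wild-type littermates (WT), with 4 input WT libraries (1 female, 3 male), 3 input KO (2 female, 1 male), 3 TRAP WT (1 female, 2 male) and 4 TRAP KO (2 female, 2 male). Astn2 encodes a membrane protein, astrotactin 2, and the study asked what its loss changes in Purkinje cells.

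Transcripts on the strand opposite to a gene arise in several ways. Many start from the same CpG-rich promoter region as the partner and run away from it, others begin beyond the partner's end and run back into it, and some lie wholly inside it. Most are long noncoding RNAs, which include RNAs that stay in the nucleus and RNAs that reach the cytoplasm, while a few carry open reading frames and encode small proteins.

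The libraries held 18799609 to 54229183 counts, so that 3 counts, the smallest signal read as detected here, stood for 0.0438 to 0.205 CPM (counts per 1000000, scaled for library composition by the TMM method in all values below). Astn2 fell from 94.5 ± 6.76 CPM (SD, n = 4) in input WT to 0.877 ± 0.129 (SD, n = 3) in input KO, and from 130.3 ± 14.9 (SD, n = 3) to 1.52 ± 0.447 (SD, n = 4) in TRAP. In WT all 10 Purkinje markers were enriched by TRAP over input, and all 8 granule cell markers and all 8 oligodendrocyte markers were lower. Of the pairs of libraries within a group, TRAP WT replicates 2 and 3 differed most, with a chi-square per degree of freedom of 267 against 8.63 to 159 in the other pairs. The labels do not say which libraries came from the same animal, and p-values measure the spread between these libraries.

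By RefSeq biotype, 71 of the 81 members were lncRNA, 3 antisense RNA and 1 a transcribed pseudogene (Fbxl12os), and 6 were annotated as protein coding, among them Wdr83os, Cebpzos, Slc7a6os, Pigbos1 and Ccpg1os. The name held where it could be checked: in the 78 pairs whose strands were known from GENCODE M21 or RefSeq, on GRCm38 (mm10), both genes lay on opposite strands. GENCODE placed 74 pairs. The genes overlapped at their starts in 29 pairs and ran apart from separate starts in 18. They overlapped at their ends in 13, the ends faced each other without overlap in 4, the transcript lay inside the sense gene in 9, and the sense gene lay inside the transcript in 1. Exon bases were shared with the partner in 47 of the 74 pairs. Whether reads were counted by strand is not given in the sources used here, so for these 47 reads of a transcript and of its partner cannot be told apart where exons overlap.

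Members were mostly scarce. In 33 of 81 the mean in input WT was under 1 CPM, in 36 it was 1 to 10, in 11 it was 10 to 100, and in 1, Oip5os1, it was over 100. Per kilobase of exon, the mean level of the transcript was above that of its partner in 20 of 74 pairs in input and in 24 of 74 in TRAP, in both genotypes. Together the members took 0.0768 to 0.0919% of input counts and 0.128 to 0.191% of TRAP counts, and a single transcript, Lhx1os, made up much of the TRAP share.

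In WT, TRAP exceeded input for 38 of the 81 members, 23 were lower and 20 did not pass the test (edgeR's quasi-likelihood test, Benjamini-Hochberg adjusted p under 0.05 over all genes tested). Of all 16042 genes tested 37.0% were called higher and 38.5% lower, so the higher calls were 46.9% of the members and the lower calls 28.4%. The median log2 fold change was 0.36 over the members, -0.09 over all genes tested and -0.27 over the 836 other noncoding RNA genes tested, of which 258 were higher and 310 lower. In KO, 37 members were higher, 23 lower and 21 not called, beside 36.3% and 39.6% of all genes (75.9% in either direction), with a median of 0.29 against -0.11. The split depends on the scaling: with library totals in place of TMM, the median of all genes moved from -0.09 to -0.91 in WT, and 25 members were higher and 33 lower in WT, and 26 higher and 37 lower in KO. Calls here are relative to the typical gene. Since these are bulk libraries, fewer cells of a type and less RNA per cell cannot be told apart.

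The count minimum bears on the lower calls. A total of 53 members reached 100 counts within each fraction, and of these 34 were higher in TRAP in WT, 6 lower and 13 not called. A further 19 reached 100 in input only, and 17 of them were the lower calls, 2 reached it in TRAP only and were higher, and 7 reached it in neither fraction alone. A transcript that entered through input alone had, by that split, under 100 counts in TRAP, so the lower count is a description of the selection as well.

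Both genotypes gave much the same picture. A total of 35 members were higher in TRAP in both genotypes, 20 lower in both and 15 called in neither, and none was called higher in one genotype and lower in the other. The remaining 11 were called in 1 genotype only, among them Peg3os and Rbm3os (higher in KO only), Cep83os, Rab10os and Map2k3os (higher in WT only), Rbfaos, Scpep1os and Igf2os (lower in WT only), and Ino80dos, Rab26os and Uchl1os (lower in KO only). No difference between the genotypes' TRAP effects passed the test, as given below. Of all genes tested, 75.5% were called in WT and 75.9% in KO, and the share called in both is not given here. The counts of members by genotype are thus a description. In WT every TRAP library was above every input library for 37 members, against 34.4% of all genes, and below for 23, against 38.2%. In KO these were 38, against 37.8%, and 24, against 40.2%.

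**Figure D1:**
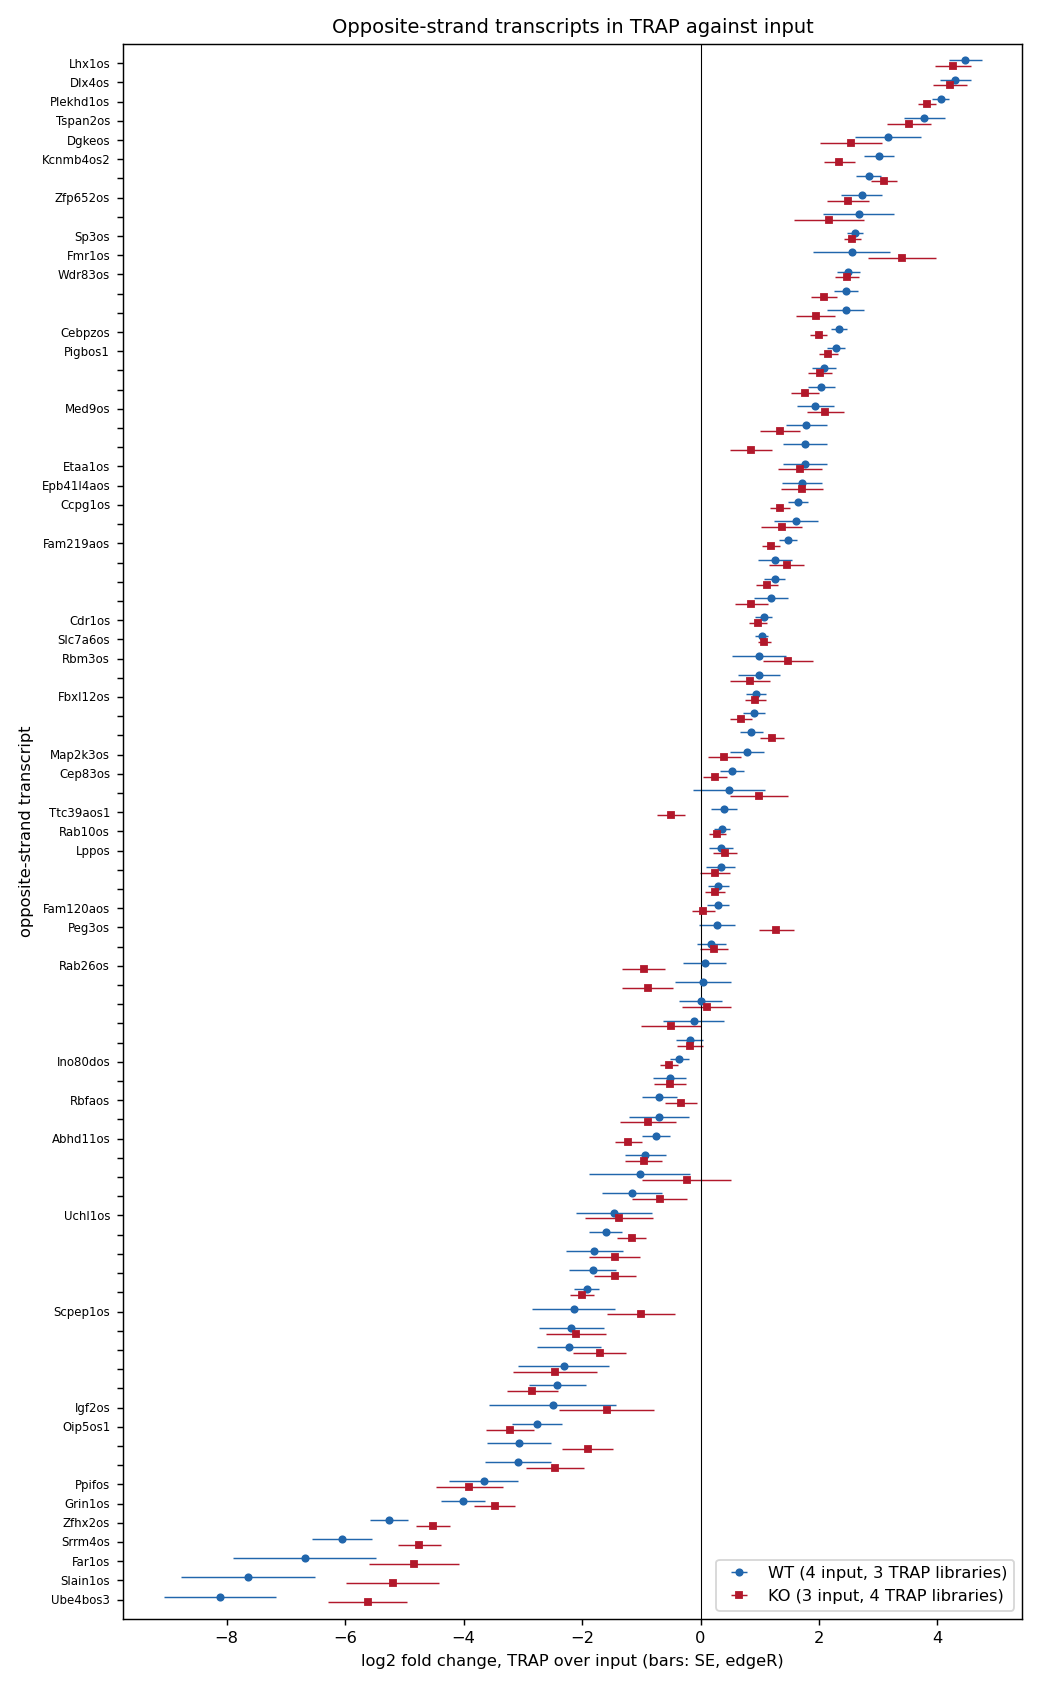
Log2 fold change of TRAP over input for each of the 81 opposite-strand transcripts, with the standard error of edgeR's fit as bars, in WT (blue circles) and KO (red squares), ranked by the WT value, with names for the transcripts described in the text. Values run from 4.47 for Lhx1os to the transcripts inside Far1, Slain1 and Ube4b at the bottom, whose fitted values rest on TRAP counts of 0 or 1 and are no bound.

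The most abundant member by summed counts was Lhx1os (Entrez 78365), on chr11:84525660-84535831 of GRCm38, plus strand. Its partner Lhx1 encodes a LIM-homeodomain transcription factor of Purkinje cells and runs the other way from a start 125 bases off. Lhx1os stood at 49.2, 48.8, 45.4 and 37.6 CPM in the input WT libraries and at 46.4, 49.3 and 48.6 in input KO, and at 885, 1531 and 600.3 in TRAP WT and 1242, 844, 798 and 785 in TRAP KO. All TRAP libraries were far above all input libraries, and the genotypes overlapped. The log2 fold change was 4.47 ± 0.27 (SE) in WT, the largest among the members (adjusted p = 5.76e-09, edgeR). Lhx1 itself rose less, by 1.74 ± 0.29 in log2, from 44.2 to 49.6 CPM in input WT to 129.8, 75.7 and 255 in TRAP WT, which gives Lhx1os 1440 CPM per kilobase of exon in TRAP WT against 37.7 for Lhx1. Within TRAP WT the order of the libraries was reversed between them: replicate 2 had the highest Lhx1os and the lowest Lhx1, and replicate 3 the lowest Lhx1os and the highest Lhx1.

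Other transcripts rose together with a partner that is itself enriched in TRAP. Dlx4os stood at 2.80 to 6.07 CPM in input WT and at 85.0, 118 and 78.0 in TRAP WT, a log2 fold change of 4.30 ± 0.26, and Dlx4, a distal-less homeobox gene, rose by 4.07 ± 0.17. Plekhd1os rose by 4.05 ± 0.15 and Plekhd1 by 2.87 ± 0.11. Kcnmb4os2 went from 16.0 to 20.9 CPM in input WT to 99.95, 110.4 and 237 in TRAP WT, by 3.02 ± 0.25, and Kcnmb4, the beta4 subunit of the BK potassium channel, by 2.78 ± 0.17. Kcnmb4os2 shares 34.2% of its exon bases with Kcnmb4, and Dlx4os 4.75% with Dlx4, where reads of the pair cannot be told apart. For Dlx4os and Kcnmb4os2 the ratio of the transcript to its partner did not differ between fractions beyond the spread (change in log2 ratio 0.49, p = 0.0898, and 0.16, p = 0.353, exact permutation test within genotypes, two-sided), while for Lhx1os it rose by 2.74 (p = 0.00082, the smallest this test can give). Single libraries decided both: without TRAP WT replicate 3 the ratio change of Dlx4os was 0.64 (exact permutation p = 0.0286), without TRAP KO replicate 4 it was 0.60 (exact permutation p = 0.0400), and that of Kcnmb4os2 was -0.00 without TRAP WT replicate 3. Without TRAP WT replicate 2 that of Kcnmb4os2 was 0.29 (exact permutation p = 0.0419).

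The stretches between the starts of 5 pairs that run apart from nearby starts are shown here because they are the only DNA between a transcript and its partner, and because the 5 pairs differ in how their members moved. Sequences are from RefSeq on GRCm38.p6, 5′ to 3′ on the transcript's strand, with each CG dinucleotide in capitals.
Lhx1os, chr11:84525536-84525659, plus strand: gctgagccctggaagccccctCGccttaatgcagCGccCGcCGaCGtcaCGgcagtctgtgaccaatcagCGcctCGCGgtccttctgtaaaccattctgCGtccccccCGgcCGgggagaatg
Med9os, chr11:59948143-59948205, minus strand: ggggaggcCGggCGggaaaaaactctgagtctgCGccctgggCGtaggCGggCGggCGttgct
Etaa1os, chr11:17953876-17953969, plus strand: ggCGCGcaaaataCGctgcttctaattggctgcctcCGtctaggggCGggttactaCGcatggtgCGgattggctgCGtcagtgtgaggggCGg
Ccpg1os, chr9:72985383-72985428, minus strand: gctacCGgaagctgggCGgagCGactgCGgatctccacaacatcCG
Cep83os, chr10:94688577-94688653, minus strand: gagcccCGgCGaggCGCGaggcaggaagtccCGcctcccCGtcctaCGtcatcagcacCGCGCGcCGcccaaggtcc
These stretches hold 12, 7, 9, 5 and 11 CG dinucleotides, in the order given. Lhx1os and Med9os rose along with their partners (Med9os by 1.94 ± 0.31 and Med9, a Mediator subunit, by 1.63 ± 0.09). Etaa1os rose by 1.76 ± 0.37 beside Etaa1, an activator of the ATR kinase, whose change was -0.00 ± 0.12. Ccpg1os rose by 1.64 ± 0.17 while Ccpg1, a receptor for autophagy of the endoplasmic reticulum, fell by 0.37 on the log2 scale (adjusted p = 0.0249, edgeR). Cep83os rose by 0.53 ± 0.20 and Cep83, a centriole appendage protein, by more, 1.22 ± 0.12. These 5 pairs, picked for that difference, moved together, unequally or in opposite directions, and all 5 transcripts were themselves called higher in TRAP in WT, beside 37.0% of all genes. Atad3aos, Map2k3os, Stamos and Fmr1os also run apart from nearby starts and are not shown. They were called higher in TRAP in WT too, beside a partner called lower (Map2k3, Stam and Fmr1) or not called (Atad3a).

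Over the RefSeq windows from 250 bases before to 50 after a start, of which 71 belonged to 67 members, the median number of CG dinucleotides was 15, against 7 over all 32851 windows and 20 over the 88 windows of partners. The letters GGGCGG (the GC box, searched on both strands) were in 47.9% of the members' windows and 35.7% of all windows, CCAAT in 35.2% and 37.4%, TATAAA in 7.04% and 13.6%, and CACGTG in 14.1% and 7.15%. GGGCGG and CACGTG each hold a CG, so their shares move with the CG count, and TATAAA holds neither C nor G. The median share of G or C was 59% in the members' windows and 52.7% in all windows. Windows of members called higher in TRAP in WT had a median of 20 CG (33 windows), those of members called lower 10 (16 windows) and the rest 12 (22 windows). Of the members called lower, 17 had reached the count minimum through input alone. Start distance differed as well: 27 higher and 7 lower calls had starts within 1000 bases of the partner's, against 8 and 14 farther apart. The CG count was not tested.

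The calls were also counted by position, beside 37.0% of all genes called higher and 38.5% lower. Among the 45 pairs with starts within 1000 bases of each other, 27 transcripts were higher in TRAP in WT and 7 lower, with a median log2 fold change of 1.25, and among the 29 pairs with starts farther apart 8 were higher and 14 lower, with a median of -0.75. Their partners did not part the same way, with medians of -0.34 and -0.09. By arrangement, the 47 pairs that overlap at their starts or run apart had 27 transcripts higher and 8 lower (median 0.99), the 13 pairs that overlap at their ends 4 and 6 (median -0.75), and the 9 transcripts inside their sense gene 1 and 6 (median -3.07). Many of the lower calls in these classes had reached the count minimum through input alone, with under 100 counts in TRAP, and so describe the selection as well. These were 5 of the 7 with near starts, 10 of the 14 with distant starts and 5 of the 6 inside a sense gene. Among the members with at least 100 counts in each fraction, a split made after the values were seen, 24 were higher and 2 lower of 34 with near starts (median 1.70), and 7 higher and 4 lower of 14 with distant starts (median 0.35), and only 2 of those inside a sense gene remained. These are descriptions, and no test of arrangement was made. In KO the medians by arrangement were 0.86 for pairs that overlap at their starts or run apart, -0.90 for those that overlap at their ends, and -1.91 for transcripts inside their sense gene.

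**Figure D2:**
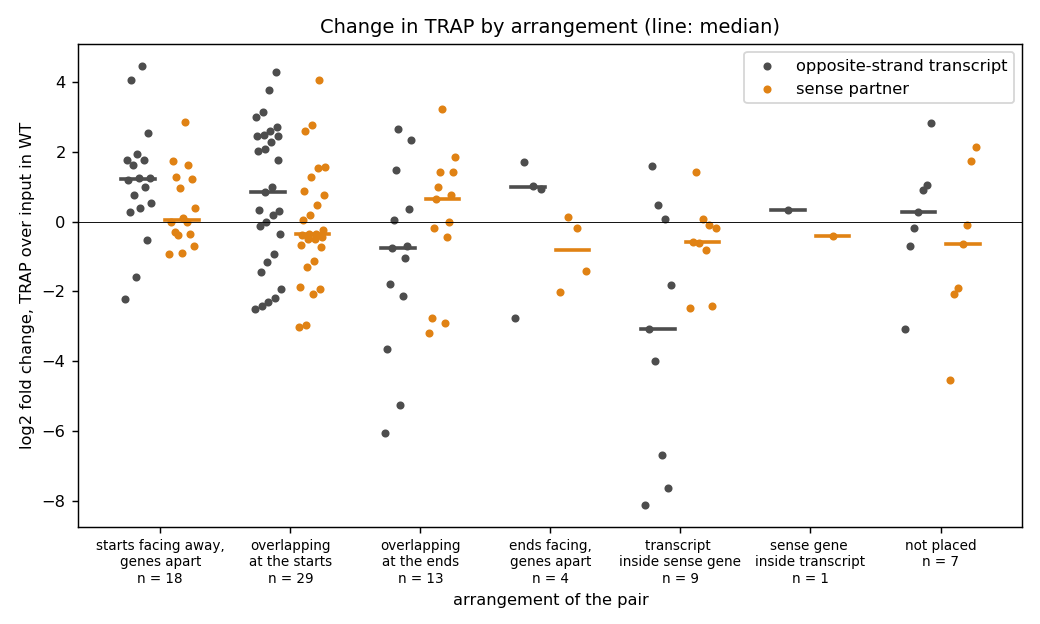
Log2 fold change of TRAP over input in WT for opposite-strand transcripts (grey) and their sense partners (orange, where tested), by arrangement of the pair, with 1 point per gene and a line at the median. The grey points of transcripts that start near the partner lie mostly above 0, and those of the 9 transcripts inside a sense gene lie mostly below it, with a median of -3.07. Of these 9, 5 had reached the count minimum through input alone.

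The transcripts inside or over the end of their sense gene included the lowest of all. Ube4bos3 lies inside Ube4b, a ubiquitin chain assembly factor, and was counted 160 times over the input WT libraries and 0 times in TRAP WT, which makes it at least 18-fold lower there (against a floor of 3 counts over the group). Slain1os, inside Slain1, a microtubule plus-end protein, was at least 12.8-fold lower (114 counts against 0), and Far1os, inside Far1, a fatty acyl-CoA reductase, at least 6.76-fold lower (60 counts against 0). In KO each had 1 count in the TRAP group, and the ratios of input to TRAP were 67.6 (95% counting interval 11.9 to 2690), 51.8 (9.08 to 2070) and 37.5 (6.52 to 1500). Srrm4os, over the end of the gene of the neuronal splicing factor Srrm4, had 430 counts in input WT and 2 in TRAP WT, a ratio of 72.7 (20 to 602). Intervals and floors cover counting error only. Ube4bos3, Slain1os and Far1os, with 0 or 1 counts in each TRAP group, had reached the count minimum through input alone, and so had Srrm4os. Their low values in TRAP thus describe the selection as well. The partners were also lower in TRAP, with log2 fold changes in WT of -0.59 ± 0.10 for Ube4b, -2.47 ± 0.21 for Slain1, -0.81 ± 0.14 for Far1 and -3.18 ± 0.19 for Srrm4.

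The ratio of each transcript to its partner was compared between the fractions. The change of the log2 ratio between TRAP and input passed p under 0.05 in 62 of 81 pairs, 38 up and 24 down (exact permutation test of 1225 arrangements within genotypes, two-sided and not adjusted over the pairs), and in 48 of the 58 pairs with at least 20 counts in mean for both genes. Of all genes tested, 75.5% were themselves called between TRAP and input in WT, and the count is not read as particular to these pairs. Partners were tested in 77 pairs, and 25 of them were higher and 33 lower in TRAP in WT. In WT 14 transcripts were higher together with a higher partner and 11 lower together with a lower one, whereas 16 were higher beside a lower partner and 4 lower beside a higher one, among them Abhd11os, Ppifos and Rbfaos. These counts have no background of other gene pairs beside them and are a description. Across the 77 pairs, which share the same libraries, the correlation of the log2 fold changes in WT was 0.40 (Pearson) and 0.297 (Spearman), given as a description.

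**Figure D3:**
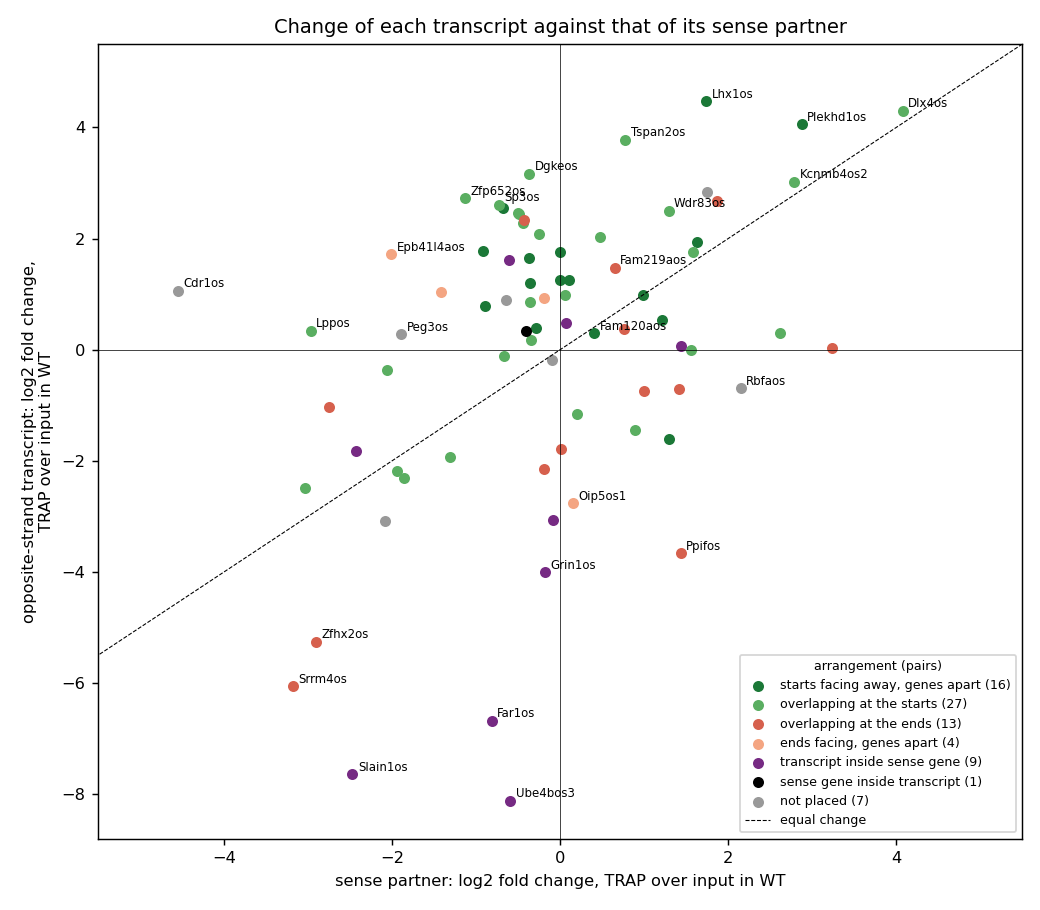
Log2 fold change of TRAP over input in WT of each opposite-strand transcript (vertical) against that of its sense partner (horizontal) for the 77 pairs tested, coloured by arrangement, with a dashed line of equal change. Cdr1os lies far to the left (1.06 against -4.55), Ppifos and Grin1os lie well below the line, and many green points (starts near each other) lie above it. Ppifos and Grin1os had reached the count minimum through input alone.

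Among pairs with at least 20 counts in mean, the largest rise of the ratio belonged to Cdr1os (Entrez 331424) and Cdr1. Cdr1os is the long transcript from which the circular RNA Cdr1as is made, an RNA known for its many sites for miR-7, and Cdr1 lies on the other strand. The table has rows for Cdr1 and Cdr1os by gene, and no value is given here for the circular RNA. Since counting by strand is not known, whether reads of the circular RNA entered the row of Cdr1 is not settled here. Cdr1os stood at 6.38 to 7.08 CPM in input WT and 13.3 to 15.8 in TRAP WT, and at 6.76 to 8.49 in input KO and 12.9 to 18.4 in TRAP KO, with no overlap of the fractions. The row of Cdr1 fell from 14.7 to 19.7 CPM in input WT to 0.663 to 0.844 in TRAP WT. The log2 fold changes in WT were 1.06 ± 0.14 and -4.55 ± 0.25, and the ratio rose by 5.54 (exact permutation p = 0.00082). With library totals the change of Cdr1os was 0.25 in WT and did not pass the test (adjusted p = 0.142, edgeR), while the ratio within a library does not depend on that scaling.

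Several transcripts were enriched in TRAP beside a depleted partner. Sp3os rose from 9.39 to 10.6 CPM in input WT to 66.9, 70.6 and 44.0 in TRAP WT (2.61 ± 0.14 in log2), while Sp3, a transcription factor that binds GC boxes, fell from 54.0 to 55.8 CPM to 31.1 to 35.5 (-0.72 ± 0.10). Zfp652os rose by 2.72 ± 0.34 while Zfp652, a zinc-finger repressor, fell by 1.13 on the log2 scale. Epb41l4aos rose by 1.71 ± 0.34 while Epb41l4a, a FERM domain protein gene, fell by 2.01. Lppos, beside the focal adhesion gene Lpp, was at 0.34 ± 0.21 and did not pass the test (adjusted p = 0.147, edgeR), and Lpp fell by 2.97. The ratio changes of these 4 pairs were 3.36, 3.52, 3.31 and 3.23, each with an exact permutation p of 0.00082. Without TRAP WT replicate 3 Lppos was at 0.59 and passed (adjusted p = 0.00384, edgeR). Tspan2os rose by 3.78 ± 0.35, from 0.266 to 0.411 CPM in input WT to 3.15 to 5.46, beside a rise of 0.78 ± 0.11 in Tspan2, a tetraspanin of myelin. Dgkeos rose by 3.16 ± 0.56, and its partner Dgke, a diacylglycerol kinase, was at -0.37 ± 0.15 (adjusted p = 0.0417, edgeR), a call that ended when any of the input libraries, or TRAP WT replicate 1 or 2, was left out (adjusted p 0.0509 to 0.183, edgeR). Dgkeos had reached the count minimum through TRAP alone, so its rise describes the selection as well.

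A lower transcript beside a higher partner was seen in Ppifos. This transcript, of whose exon bases 79.5% are shared with Ppif, the mitochondrial cyclophilin D, fell from 1.25 to 2.83 CPM in input WT to 0.0684 to 0.207 in TRAP WT (-3.66 ± 0.58), while Ppif rose by 1.43 ± 0.12. Ppifos had reached the count minimum through input alone, so its low value in TRAP describes the selection as well. Rbfaos was at -0.69 ± 0.30 (adjusted p = 0.0492, edgeR), just past the threshold, while Rbfa, a mitochondrial ribosome assembly factor, rose by 2.15 ± 0.13. The ratio changes of the Ppifos and Rbfaos pairs were -4.59 and -2.67 (exact permutation p = 0.00082 for each). For Rbfaos the call ended without input WT replicate 2 or 3, without TRAP WT replicate 1 or 3, without TRAP KO replicate 3 or 4, and without any input KO library (adjusted p 0.0518 to 0.169, edgeR).

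Oip5os1 (Entrez 66602), on chr2:119594297-119607502, plus strand, is also known as Cyrano, a conserved long noncoding RNA that directs the breakdown of miR-7. It stood at 244, 201, 192 and 218 CPM in input WT and at 258, 255 and 255 in input KO, and fell to 27.4, 12.9 and 53.6 in TRAP WT and 17.4, 29.2, 18.6 and 47.2 in TRAP KO. Input and TRAP did not overlap, and the change was -2.77 ± 0.42 in WT and -3.22 ± 0.40 in KO (adjusted p = 4.37e-05 and 6.75e-06, edgeR). Its partner Oip5, a centromere assembly gene, stood at only 0.274 to 0.699 CPM in input WT and did not pass the test.

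Of the 6 members annotated as protein coding, 5 were higher in TRAP in both genotypes. Wdr83os, which encodes a subunit of a chaperone complex for membrane proteins of the endoplasmic reticulum, stood at 20.7 to 23.4 CPM in input WT and 112, 173 and 96.1 in TRAP WT, a log2 fold change of 2.50 ± 0.19 beside 1.29 ± 0.14 in Wdr83. Of the exon bases of Wdr83os 52.3% are shared with Wdr83, where reads of the pair cannot be told apart. Pigbos1, a microprotein of the mitochondrial outer membrane, rose by 2.29 ± 0.15 while Pigb, an enzyme of glycosylphosphatidylinositol anchors, fell by 0.44. Cebpzos rose by 2.34 ± 0.14 beside Cebpz at -0.44 ± 0.21, which did not pass the test. Slc7a6os, related to a yeast factor for nuclear import of RNA polymerase II, rose by 1.03 ± 0.11 while Slc7a6, an amino acid transporter, fell by 1.42. Over the 75 noncoding members, 33 were higher and 22 lower in WT, with a median of 0.34. These were 44.0% and 29.3%, against 37.0% and 38.5% of all genes tested.

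Of the 35 members with at least 1000 counts, a sum in which input and TRAP both enter, 23 were higher in TRAP in WT and 4 lower. Among all genes tested, without that minimum, 37.0% were higher and 38.5% lower. Their shares at that minimum are not given here, so the counts are a description. Fam219aos rose by 1.48 ± 0.15, from 32.8 to 36.3 CPM in input WT to 70.0, 98.3 and 119 in TRAP WT, and Fam219a by 0.65 ± 0.17. Of the exon bases of Fam219aos 66.2% are shared with Fam219a, where reads of the pair cannot be told apart. Fam120aos was at 0.29 ± 0.19 and did not pass the test (adjusted p = 0.177, edgeR), with TRAP WT libraries at 32.1, 53.4 and 39.1 CPM that overlapped input WT at 30.8 to 39.4. Its partner Fam120a, an RNA-binding protein gene, was at 0.41 ± 0.13 (adjusted p = 0.0111, edgeR), a call that ended without TRAP WT replicate 3 (0.21, adjusted p = 0.0814). Without TRAP WT replicate 1 Fam120aos passed (0.51, adjusted p = 0.0268, edgeR). With library totals, Fam219a, Fam120aos and Fam120a went below 0.

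For comparison, 28 other long noncoding RNAs were tested from a fixed list of 31, chosen for their names and not for their position. In WT 7 were higher in TRAP and 21 lower, with a median of -1.91. Malat1, which stays in nuclear speckles, fell by 4.54 on the log2 scale, Meg3 by 4.64 and Miat by 5.01, whereas Gas5 rose by 1.61 ± 0.20, Pvt1 by 2.54 ± 0.11 and Airn by 1.77 ± 0.13. The list of imprinted genes, to which Peg3 belongs, had 8 higher and 15 lower of 30 tested.

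The genotypes were compared within each fraction. In input 78 members were tested, 1 was lower in KO, Zfhx2os, and none higher, beside 0.0125% and 0.00625% of all 15997 genes tested (0.0188% in either direction). At an unadjusted p under 0.05 there were 9 members, against 13.7% of all genes, so the members' share was below the background. In TRAP 62 members were tested and 0 called (edgeR and DESeq2), beside 0.00707% of 14145 genes, with 2 members at an unadjusted p under 0.05, against 1.5% of all genes. The genotype by fraction interaction called 0 of 81 members and 0.0% of 16042 genes, with 2 members at an unadjusted p under 0.05, against 2.68% of all genes. Every KO library was below every WT library for 3 members in input and above for 3, against 4.21% and 6.14% of all genes, and for 1 and 1 in TRAP, against 2.66% and 1.96%. None of these shares is a result about the members as a group.

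Zfhx2os (Entrez 432855) overlaps the end of Zfhx2, a zinc-finger homeobox gene, on chr14:55053869-55075873, plus strand, and 73.1% of its exon bases are also exon bases of Zfhx2. It was chosen for description with its genotype difference known. In input it stood at 13.5 CPM in the WT female and 10.9, 10.9 and 10.7 in the WT males, and at 7.99 and 8.10 in the KO females and 5.25 in the KO male. All KO libraries were below all WT libraries, within each sex as well, and within each genotype the females were above the males. The log2 fold change was -0.92 ± 0.10 (adjusted p = 0.0404, edgeR). Zfhx2 stood at 35.3, 32.1, 29.9 and 29.5 CPM in input WT and 26.4, 31.2 and 23.5 in input KO, a change of -0.35 ± 0.08 that did not pass (adjusted p = 0.186, edgeR). The log2 ratio of Zfhx2os to Zfhx2 went from -1.46 ± 0.07 (SD, n = 4) to -1.93 ± 0.21 (SD, n = 3), a change of -0.47 with an exact permutation p of 0.0286, the smallest that 35 splits can give, over 81 pairs. The call of Zfhx2os held in 5 of 14 other settings, with changes from -1.07 to -0.71 and adjusted p from 2.01e-09 to 1.00. It ended when any input library other than KO replicate 2 was left out (adjusted p 0.0688 to 0.527, edgeR). In TRAP the transcript stood at 0.225 to 0.373 CPM in WT and 0.0586 to 0.443 in KO, under the count filter of the genotype fit. In the 2 other settings that tested it the change ran from -0.13 to -0.044, with adjusted p from 0.959 to 1.00 in edgeR. From input to TRAP Zfhx2os fell by 5.26 on the log2 scale in WT and 4.52 in KO, while Zfhx2 fell by 2.91 and 2.67. Zfhx2os had reached the count minimum through input alone, so its low value in TRAP describes the selection as well.

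Grin1os (Entrez 320354), on chr2:25291220-25298925, plus strand, lies inside Grin1, which encodes the subunit that NMDA receptors require, and shares 45.2% of its exon bases with it. Its input levels were 7.19, 6.29, 6.40 and 5.96 CPM in WT and 3.54, 4.20 and 2.79 in KO, again without overlap. The change was -1.05 ± 0.13 with an adjusted p of 0.0672 (edgeR), so it did not pass the threshold, though it did in 4 of 14 other settings, 1 of them without input KO replicate 2 (adjusted p = 0.0164, edgeR). Over those settings the change ran from -1.19 to -0.87 and the adjusted p from 1.58e-07 to 1.00. Grin1 stood at 217, 222, 238 and 244 CPM in input WT and 188.5, 192 and 189.6 in input KO, without overlap but with a small change of -0.27 ± 0.07 (adjusted p = 0.218, edgeR). The log2 ratio of Grin1os to Grin1 changed by -0.60 (exact permutation p = 0.0286). In TRAP Grin1os stood at 0.0563 to 0.615 CPM in WT and 0.221 to 0.469 in KO, a fall from input of 4.01 in log2 in WT. Grin1os had reached the count minimum through input alone, so its low value in TRAP describes the selection as well. Grin1 was at -0.18 ± 0.11 in WT and did not pass (adjusted p = 0.147, edgeR). Without TRAP WT replicate 3 Grin1 passed (-0.29, adjusted p = 0.0297, edgeR).

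With 81 pairs, a p of 0.0286 is reached in 2.31 pairs on average without any difference, so the 3 pairs in input and the 1 in TRAP that reached it, unadjusted, are not read as differing by genotype. The third pair in input was Sp3os and Sp3, with a change of -0.14 (exact permutation p = 0.0286), where Sp3os was at 0.02 ± 0.07 and Sp3 at 0.20 ± 0.05. In TRAP the ratio of Ino80dos to Ino80d, a subunit gene of the INO80 chromatin remodeler, was lower in KO by 0.57 on the log2 scale (-0.57, exact permutation p = 0.0286). Neither gene of these pairs passed a genotype test. With 7 libraries a fraction, leaving any of them out makes p under 0.05 unreachable for these ratios.

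Ttc39aos1 was singled out after its values were seen. It runs away from Ttc39a, a tetratricopeptide repeat gene, from a start 468 bases off. In TRAP it stood at 6.29, 4.16 and 8.50 CPM in WT and 2.61, 1.82, 2.05 and 2.39 in KO, and in input at 4.46 to 5.12 in WT and 2.54 to 3.75 in KO, so the genotypes did not overlap in either fraction. The change was -1.50 ± 0.30 in TRAP (unadjusted p = 0.000961, adjusted p = 1.00, edgeR) and -0.74 ± 0.15 in input (adjusted p = 0.154), and neither passed. DESeq2 called it in input (adjusted p = 0.00656). Ttc39a was at -0.41 ± 0.28 in TRAP and -0.56 ± 0.25 in input.

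Peg3os (Entrez 100169889) is a transcript of the imprinted Peg3 domain, where Peg3, a zinc-finger gene, is expressed from the paternal copy. It stood at 2.80, 2.31 and 2.49 CPM in TRAP WT and 7.53, 4.39, 4.87 and 4.51 in TRAP KO, without overlap, and at 1.73 to 2.74 in input WT and 1.29 to 3.13 in input KO, with overlap. The genotype change in TRAP was 1.02 ± 0.26 (unadjusted p = 0.00442, adjusted p = 1.00, edgeR) and did not pass in any of 14 other settings (adjusted p 0.614 to 1.00). Peg3 was at 33.1, 17.6 and 52.0 CPM in TRAP WT and 42.0, 43.4, 29.4 and 57.3 in TRAP KO, with overlap, and had fallen from 111 to 152 in input WT. The ratio of Peg3os to Peg3 was higher in TRAP than in input by 2.61 (exact permutation p = 0.00082), and its genotype difference in TRAP was 0.59 (exact permutation p = 0.286).

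**Figure D4:**
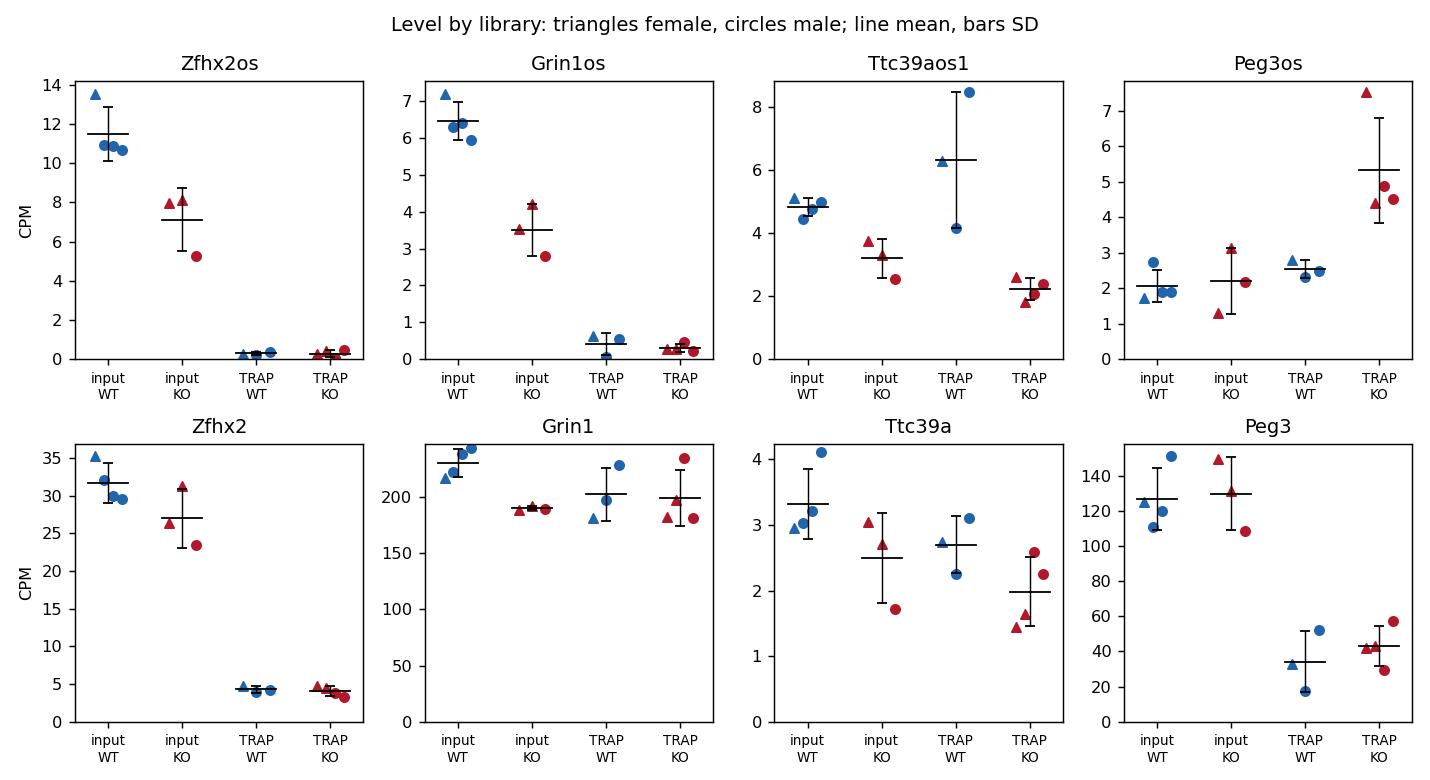
Level in CPM in every library for 4 opposite-strand transcripts (top) and their sense partners (bottom), WT in blue and KO in red, females as triangles and males as circles, with the mean and SD. Zfhx2os and Grin1os are lower in all input KO than in all input WT libraries and near 0 in TRAP, Ttc39aos1 is lower in KO in both fractions, and Peg3os is higher in TRAP KO, with 4.39 to 7.53 CPM against 2.31 to 2.80. Zfhx2os and Grin1os had reached the count minimum through input alone.

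Small shifts leaned below 0 in KO. Of the members tested, 53 of 78 had an estimate below 0 in input (67.9%, against 52.2% of all genes) and 47 of 62 in TRAP (75.8%, against 49.7%), and of the partners 32 of 77 and 35 of 77. The median log2 fold change in input was -0.11 over the members, -0.12 over 823 other noncoding RNA genes, 0.01 over the partners and -0.00 over protein coding genes, and in TRAP it was -0.10, -0.09, 0.03 and 0.00. Of the 59 members tested in both fractions, 31 were below 0 in both. The medians of the members depend on single libraries and on the fit: in input it was -0.043 without WT replicate 1 and -0.055 without the sex term, and in TRAP it ran from -0.168 without KO replicate 1 to -0.056 without WT replicate 2. In the fits given first, these medians of the members lay within 0.01 of those of other noncoding RNA genes; no test of the lean was made.

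**Figure D5:**
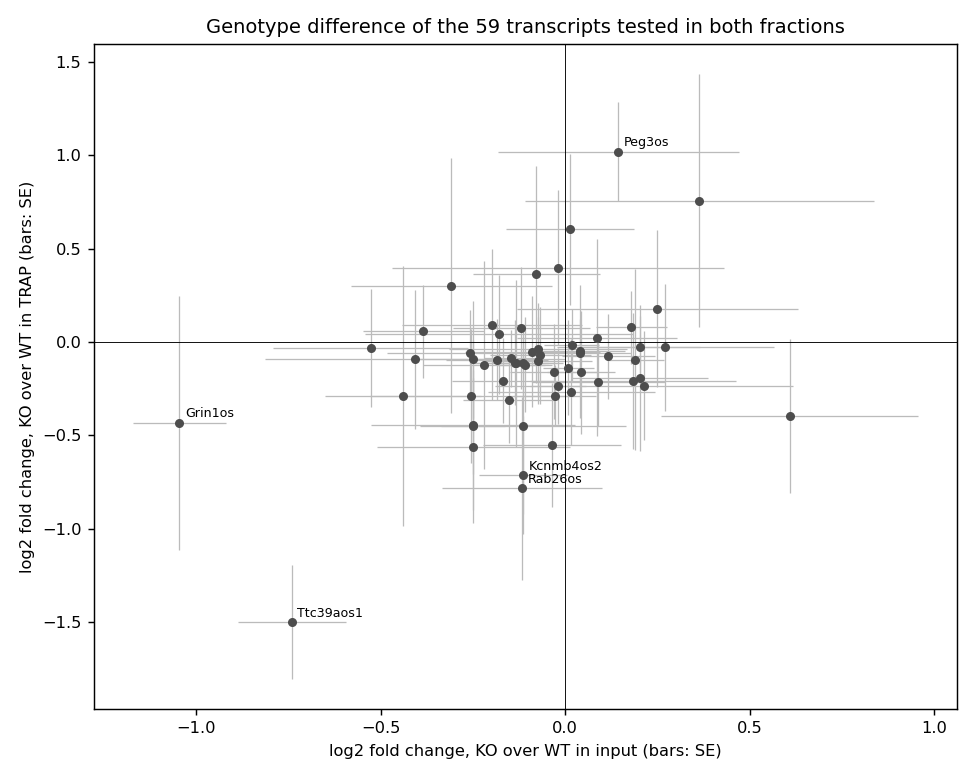
Log2 fold change of KO over WT in TRAP (vertical) against that in input (horizontal) for the 59 members tested in both fractions, with standard errors as bars. Most lie near 0, Grin1os lies at -1.05 in input, Ttc39aos1 is below 0 on both axes and Peg3os is at 1.02 in TRAP.

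Some marker sums also parted by genotype in the same libraries. The summed level of the 6 endothelial markers was 20.2 to 28.3 CPM in input WT and 12.9 to 19.5 in input KO, without overlap. In TRAP it overlapped, at 8.82 to 9.5 in WT and 5.13 to 11 in KO. The summed level of the 6 choroid plexus markers was 115 to 204 CPM in TRAP WT and 85.0 to 106 in TRAP KO, also without overlap. In input it overlapped, at 12 to 400 in WT and 10.5 to 1170 in KO. Clic6 alone had a mean of 111 CPM in TRAP WT and 91.7 in TRAP KO, and rose in TRAP over input by 3.09 in log2 in WT. No marker tested in either list was called by genotype, and none was at 0 in all libraries of a group. The part of these markers in the genotype values of Zfhx2os, Grin1os, Ttc39aos1 and Peg3os was not tested. Sex is unequal between the groups: without sex in the fit, the change of Zfhx2os in input was -0.71 and did not pass (adjusted p = 0.244, edgeR).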

How the data were processed

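RNA-seq counts of 14 cerebellum libraries were analysed. The values are raw read counts per gene, deposited by the authors under Entrez identifiers. Per the submitters' processing notes, Salmon 0.8.2 and mm10 were used, with no role stated; strand setting and annotation are not given in the sources used here. Names came from RefSeq (GRCm38.p6; 24045 of 24100 genes matched), positions from GENCODE M21, matched by symbol or identifier.

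Genes were tested with edgeR 4.0.16 (quasi-likelihood, TMM, filterByExpr, sex as covariate; R 4.3.3; SE from the F statistic), TRAP against input and the interaction in all 14 libraries, genotype in the 7 libraries of a fraction, after a check on simulated data. DESeq2 1.42.0 was an alternative. The ratio of a transcript to its partner was log2 of CPM + 0.1, tested by exact permutation (SciPy 1.17.1). CPM are TMM-scaled.

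Named with values were Zfhx2os, Grin1os and Peg3os, the 6 members with most counts, every member past a genotype threshold, the 6 highest and 6 lowest in TRAP in WT, the 5 highest and 5 lowest ratio changes among pairs with at least 20 counts in mean, and their partners; 1 item under this rule is not reported here. Others were named as protein coding, by position of their starts or after their values were seen. Members and lists were chosen with earlier results of these data known. Alternatives were other scalings, filters, pseudocounts, minimums, covariates, the replicate block and each library left out.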

Additional observations from a re-analysis of the deposited data

Results flagged for a closer look

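In groups of 4 libraries, 6 of 104 values examined had 1 library far from the other 3 (by Dixon's 95% value for the gap over the group's range), and chance gives about 1 in 20. Zfhx2os in input WT replicate 1, the female, was at 13.5 CPM and the males at 10.7 to 10.9, so that the gap took 0.907 of the range. Lhx1os in TRAP KO replicate 1 was at 1242 CPM against 785 to 844, a gap of 0.841. Fam219aos in the same library was at 90.9 CPM against 74.0 to 75.1, a gap of 0.923. Ube4bos3, Slain1os and Far1os each had 1 count in a single TRAP KO library (replicates 1, 3 and 2) and 0 in the others, a gap of 1 by construction.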

How the results depend on the processing

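Counts of members called in TRAP against input stayed within 1.5 times under DESeq2, DESeq2 size factors, no filter, no sex term and each library left out, in WT from 35 to 39 higher and 20 to 26 lower, in KO from 35 to 40 higher and 21 to 24 lower with 1 library left out. With library totals 25 were higher in WT and 37 lower in KO. Among members with at least 1000 counts, 23 were higher and 4 lower in WT, 22 and 5 in KO. Members lower in KO in input numbered 2 with DESeq2 size factors (4 of all genes lower, 2 in the fit reported), 2 with no filter (18 of all genes), 3 with DESeq2 (189 of all genes), 0 without the sex term, 0 with all 14 libraries in 1 fit, and 0 to 2 with 1 library left out (2 without KO replicate 2, where 104 of all genes were lower). Ratio pairs at p under 0.05 by genotype became 5 in input and 2 in TRAP with a pseudocount of 1 CPM, and 0 when any library was left out, where that p is out of reach.

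Same-numbered input and TRAP libraries, which have the same sex, had correlated deviations of 0.292, 0.243 and 0.098 in WT and 0.225, 0.225 and -0.125 in KO, and same-numbered WT and KO libraries of -0.196 to 0.143. Not every pair exceeded 0.1 and the labels tie no numbers to animals, so the libraries were not treated as paired, and a shared animal for some of them is not settled. With the replicate block 34 and 22 members were called in WT, 34 and 20 in KO, and 0 by genotype in input.

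Directions turned with library totals for Grin1 in KO (-0.69), Peg3os in WT (-0.54), Oip5 (-0.66 in WT, -0.70 in KO), Fam219a (-0.17, -0.060), Fam120aos (-0.53, -0.69), Fam120a (-0.41, -0.51), Tspan2 (-0.046, -0.12), Lppos (-0.48, -0.32) and Ttc39aos1 in WT (-0.43). Oip5 in KO was -0.37 with the replicate block. With a pseudocount of 1 CPM the ratio change was 1.75 for Slain1os, 0.30 for Far1os and 1.20 for Srrm4os, whose TRAP levels lie under that pseudocount. With 1 library left out, values crossed 0 for Grin1os by genotype in TRAP (-0.89 to 0.115), Peg3os by genotype in input (-0.15 to 0.39), Grin1 in KO (-0.022 to 0.10), Oip5 (-0.34 to 0.47 in WT, -0.29 to 0.37 in KO), Fam120aos (-0.0061 to 0.51 in WT, -0.19 to 0.14 in KO) and the ratio changes of Kcnmb4os2 (-0.0041 to 0.29) and Slain1os (-0.38 to 0.041). The cause was not tested.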
